A study of Homo sapiens with 17 samples.

Results

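The comparison described here is between 3 small-RNA libraries of P351A rescue cells given a treatment labelled ALA and 3 libraries of P351A rescue cells without it, which make up 6 of the 17 libraries in the series. Every library compared comes from DGCR8ΔCTT HCT116 cells. HCT116 is a long-established line grown from a human colon carcinoma, and ΔCTT is a functional knockout made with CRISPR-Cas9 by removing the CTT domain from DGCR8. On this shared background the P351A group carries a rescue with P351A DGCR8, and the P351A plus ALA group carries the same rescue together with ALA. The other rescue groups, used here only for levels set beside these, are WT DGCR8, C352A DGCR8 and a mock rescue, each with 3 libraries. ALA commonly stands for delta-aminolevulinic acid, but the labels do not spell it out and give no dose or time. Whether the edited cells are 1 clone, and whether replicates were grown as separate cultures, is not stated either. The p-values therefore cover the spread among libraries, and that spread may be technical. Small-RNA libraries do not measure messenger RNA of DGCR8, and the rescue could not be checked from its own gene. Of 1282 hairpins in the rescue table, the 336 with a mean of 10 or more over the 15 rescue libraries were tested. The title of the series concerns hemin, an oxidised form of heme, and how Microprocessor uses it at the apical loop of a hairpin.

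MicroRNAs are cut from long primary transcripts in the nucleus by Microprocessor, made of the nuclease DROSHA and a dimer of its partner DGCR8, which binds the apical part of the hairpin and also binds heme. The residues changed in P351A and C352A lie next to each other in the heme-binding region of DGCR8, and delta-aminolevulinic acid is the product of the first step of heme synthesis. A few hairpins reach the cytoplasm without Microprocessor: mirtrons are released by splicing, and others are made directly at a transcription start. Bases 2 to 8 of a mature microRNA, its seed, largely set which messenger RNAs it pairs with.

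Depth, the sum of whole read counts over hairpins, was 1666688 to 2175294 in the P351A libraries and 1191542 to 1941805 in the P351A plus ALA libraries. Values are scaled reads on the authors' scale. There a sum over part of the miR-320 hairpins, not all of them, was 1.08 times as high with ALA as without it. The sum over all hairpins in the table was 1.72 times as high. Of the 8 tested miR-320 hairpins 1 rose and 3, all low copies, fell, beside 44.6% and 2.98% of all tested hairpins. A sum over all 8 is not given here. The P351A and P351A plus ALA libraries stood apart from the other rescue groups in mir-373, which was at 0 in all 6 of them and between 1038 and 5176 scaled reads in the 9 WT, C352A and mock libraries. In WT, replicate 1 had a summed value of 1962191 against 1137363 and 1193937 in the other two. The part of these differences in the values set beside WT or mock was not tested. The epithelial list, used to check the label, had all 10 of its hairpins above the limit for testing, with mir-141 and the mir-200 hairpins among them. In P351A its sum was 2576 to 2910 scaled reads, against 2352 to 3515 for a list of other cell types. With ALA the sums were 2745 to 4360 and 1501 to 2564. The P351A sums overlapped, so the check did not set the lists apart there.

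The mature sequences below belong to hairpins on which the results turn, grouped where a seed is shared. They are from RefSeq on GRCh38.p14, written 5′ to 3′, with the seed (bases 2 to 8) in capitals. The deposited values are per hairpin and do not separate its arms, so the arm shown is the one usually named for that hairpin and not one read from these data.

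The miR-30 members share a seed and rose by different amounts.
miR-30a-5p: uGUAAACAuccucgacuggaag
miR-30c-5p: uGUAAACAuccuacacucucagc
miR-30e-5p: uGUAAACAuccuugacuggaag

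The pair from the MIR222HG transcript shares a seed, and only mir-222 passed the test.
miR-222-3p: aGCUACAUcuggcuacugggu
miR-221-3p: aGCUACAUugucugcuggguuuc

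The let-7 members share a seed, with let-7i the largest rise among them.
let-7i-5p: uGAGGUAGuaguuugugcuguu
let-7a-5p: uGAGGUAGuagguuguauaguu
let-7f-5p: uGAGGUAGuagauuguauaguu

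The miR-23 members and the miR-15/16 members each have a seed in common.
miR-23a-3p: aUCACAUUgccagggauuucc
miR-23b-3p: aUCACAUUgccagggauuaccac
miR-424-5p: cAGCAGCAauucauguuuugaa
miR-16-5p: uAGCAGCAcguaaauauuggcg

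The hairpins of the mir-183 cluster come from 1 locus and differ within the seed.
miR-183-5p: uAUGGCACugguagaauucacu
miR-96-5p: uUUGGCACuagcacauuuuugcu
miR-182-5p: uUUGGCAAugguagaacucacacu

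The remaining sequences are those of large rises (miR-22, miR-149, miR-224, miR-10a and the mirtron miR-877) and of 2 of the falls (miR-19a and miR-629).
miR-22-3p: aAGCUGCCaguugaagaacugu
miR-149-5p: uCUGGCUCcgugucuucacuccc
miR-224-5p: uCAAGUCAcuagugguuccguuuag
miR-10a-5p: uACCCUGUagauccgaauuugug
miR-877-5p: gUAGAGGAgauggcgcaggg
miR-19a-3p: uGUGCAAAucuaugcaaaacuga
miR-629-5p: uGGGUUUAcguugggagaacu

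With ALA, hairpin levels in P351A cells were broadly higher on the authors' scale. Of the 336 hairpins tested, 160 changed (47.6%), of which 150 rose (44.6%) and 10 fell (2.98%), with limma on log2(value + 1) and a Benjamini-Hochberg adjusted p under 0.05, and the median log2 fold change was 0.81. The libraries of the 2 groups did not overlap for 236 hairpins (70.2%), and the 3 ALA libraries lay above all 3 P351A libraries for 202 hairpins (60.1%) and below them for 34 (10.1%). The median value of the tested hairpins was 53.2 to 56.5 scaled reads in the P351A libraries and 101 to 140 in the ALA libraries, so the libraries did not overlap in this measure. The plot of fold change against level shows the rises at every level, from mir-1306 and mir-224 to mir-222, and the falls mostly among low hairpins.

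How many hairpins were called as risen or as fallen rests on how the libraries are scaled. With equal totals per library, 74 hairpins rose (22%) and 61 fell (18.2%), and the median log2 fold change was 0.06. Centred on the median hairpin of each library, 45 rose (13.4%) and 105 fell (31.2%), with a median of -0.33. With libraries centred on the mean of 5 hairpins listed as made without DGCR8, 17 rose (5.06%) and 166 fell (49.4%), with a median of -1.05. The hairpins that rose under all 4 scalings were mir-22, mir-30a, mir-30b, mir-149, mir-193b, mir-224, mir-342, mir-424, mir-877, mir-1306, mir-3609, mir-4517, mir-6087 and both copies of mir-1254 and of mir-3648, which makes 17. All 10 falls held under all 4. Each of the other scalings lowered the ALA values against P351A, so a fall was bound to stay below 0 there. That the falls held is thus no added support. The values below are on the authors' scale unless another is named, and a ratio of 2 hairpins within a library does not depend on any of these scalings.

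Hairpins with large rises included mir-22, mir-10a and mir-222. The hairpin mir-22, known as a brake on growth signalling, lies in an exon of MIR22HG (chromosome 17, 1713903 to 1713987, minus strand, GRCh38). It had 4204, 4236 and 4476 scaled reads in P351A replicates 1 to 3 and 22777, 35227 and 33019.8 in ALA replicates 1 to 3. Every ALA library was above every P351A library, and ALA replicate 1 was the lowest of its group. The fold was 6.93 (log2 2.79, SE 0.24, limma adjusted p = 2.3e-07), and mir-22 was among those that rose under all 4 scalings. Its ratio to mir-320a within a library was 0.0574 ± 0.0041 (SD, n = 3) without ALA and 0.331 ± 0.0703 with it. WT libraries held 0.733, 0.512 and 0.531 for this ratio, above every ALA library.

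The HOXB-cluster hairpin mir-10a, from the locus of the HOX body-plan genes (chromosome 17, 48579838 to 48579947, minus strand, an exon of HOXB4 and an intron of HOXB3), held 5768, 5961 and 5994 scaled reads without ALA and 32699, 33345 and 29023 with it. These 6 libraries formed 2 tight groups that did not overlap. The log2 fold change was 2.42 (SE 0.24, limma adjusted p = 9.7e-07), and the adjusted p was 0.20 when libraries were centred on the DGCR8-independent hairpins. Its counterpart in HOXD3, mir-10b, also rose. Of the 5 tested hairpins of the HOX list, 2 rose and none fell, beside 44.6% of all tested hairpins that rose. The list median of 0.89 became -0.24 centred on the median hairpin and -0.97 on the DGCR8-independent hairpins.

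The miR-30 hairpins, which restrain genes of cell adhesion and epithelial plasticity, all rose, beside 44.6% of all tested hairpins. The 6 members tested had a median log2 fold change of 1.94 (range 1.05 to 3.39), which stayed above 0 under all 4 scalings at 0.80 centred on the median hairpin and 0.08 on the DGCR8-independent hairpins, although only 2 rose under each of the other scalings. The hairpin mir-30a (chromosome 6, 71403551 to 71403621, minus strand, an intron of LINC00472) had 243, 234 and 207.9 scaled reads without ALA and 1363, 2851 and 3569 with it. No library of either group came near the other, and the ALA libraries differed among themselves more than the P351A libraries did. Its fold was 10.5 (log2 3.39, SE 0.34, limma adjusted p = 9.8e-07). The hairpin mir-30b, on chromosome 8, had 71.0, 66.0 and 84.9 scaled reads without ALA and 1018, 930.3 and 243 with it. ALA replicate 3 was the lowest of its group for mir-30b and both copies of mir-30c but the highest for mir-30a. The log2 fold change of mir-30b was 3.04 (SE 0.51, limma adjusted p = 0.0001), against 1.05 for its neighbour mir-30d, whose value became -0.09 centred on the median hairpin.

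Several low hairpins had the largest fold changes. The hairpin mir-224, from an intron and exon of GABRE on the X chromosome (151958578 to 151958658, minus strand), had 17.0, 13.8 and 11.7 scaled reads without ALA and 246, 277 and 188.3 with it. The ALA libraries were close to each other and far above the P351A libraries. This gave a log2 fold change of 3.97 (SE 0.41, limma adjusted p = 1.6e-06), from 95 reads in P351A and 715 in ALA. The hairpin mir-149, in an intron of GPC1 (chromosome 2, 240456001 to 240456089, plus strand), had the same fitted log2 fold change, 3.97, with an SE of 0.71 (limma adjusted p = 0.00021). Its values were 23.4, 23.5 and 18.5 without ALA and 818, 741 and 72.2 with it. ALA replicate 3 was thus far below the other ALA libraries, though still above all P351A libraries. Without ALA replicate 3 the log2 fold change of mir-149 was 5.10, and without ALA replicate 1 it was 3.36.

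The hairpins mir-342, mir-193b and mir-424 rose in the same range. For mir-342, from an intron of EVL (chromosome 14, 100109655 to 100109753, plus strand), values were 5.50, 6.89 and 10.2 without ALA and 214.5, 221.7 and 39.2 with it (log2 3.90, SE 0.51, limma adjusted p = 1.2e-05). ALA replicate 3 was again the low library. For mir-193b, a tumour-suppressive microRNA from MIR193BHG on chromosome 16, values were 25.7, 25.5 and 20.99 against 194.2, 325 and 137 (log2 3.05, SE 0.47, limma adjusted p = 5.4e-05). The hairpin mir-3609, in an intron of TRRAP, had 3 reads in all P351A libraries together and 64 in the ALA libraries, a ratio of scaled values of 46.0 with a 95% counting interval of 15.1 to 229. The hairpin mir-4517 had 4 reads against 70.

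Some hairpins cut from a shared transcript differed in their change, and the ratio of 2 such hairpins within a library gives this without any scaling. The hairpins mir-222 and mir-221, which promote the cell cycle by restraining CDKN1B, lie in an intron of MIR222HG on the X chromosome, at 45747015 to 45747124 and 45746157 to 45746266, minus strand. For mir-222, values were 17322, 22460.1 and 12448 without ALA and 87298, 84201 and 95346 with it. For mir-221 they were 14730.4, 20531 and 19485 against 17882, 18147 and 19379. The groups were wide apart for mir-222 and overlapped for mir-221. The log2 fold change was 2.39 for mir-222 (SE 0.17, limma adjusted p = 3.1e-08) and 0.03 for mir-221 (SE 0.30, limma adjusted p = 0.96, 95% interval -0.60 to 0.66). The ratio of mir-222 to mir-221 was 1.18, 1.09 and 0.639 in the P351A libraries and 4.88, 4.64 and 4.92 in the ALA libraries. In the WT libraries that ratio was 1.21, 2.36 and 2.61, below every ALA library. This pair and the others whose ratios are given were chosen after their values were seen, so the ratios are given with no test.

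The introns of SKA2 hold mir-301a (chromosome 17, 59151136 to 59151221, minus strand) and mir-454, of the family that also holds mir-130a and mir-301b. For mir-301a, values were 254, 256 and 212 without ALA and 1898, 2643 and 831 with it (log2 2.74, SE 0.41, limma adjusted p = 4.5e-05). For mir-454, the values of 115, 112 and 72.2 overlapped those of 169, 163 and 99.1 with ALA (log2 0.51, SE 0.36, limma adjusted p = 0.25). The ratio of mir-301a to mir-454 went from 2.20, 2.29 and 2.93 in the P351A libraries to 11.2, 16.2 and 8.38, a description like that of the pair above. Of the 5 tested family members, 3 rose and none fell, beside 44.6% of all tested hairpins that rose. The family median of 1.44 became 0.30 centred on the median hairpin and -0.43 on the DGCR8-independent hairpins.

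Of the tested hairpins of MIR17HG on chromosome 13, the oncogenic miR-17-92 transcript, only mir-19a was called. This hairpin (91350891 to 91350972, plus strand) fell from 1419.8, 2593 and 2189 scaled reads to 631, 872 and 669. All 3 ALA libraries were below all 3 P351A libraries. Its fitted log2 fold change was -1.48 (SE 0.53, limma adjusted p = 0.03), and it missed the threshold (adjusted p from 0.062 to 0.099) without P351A replicate 2 or 3 or ALA replicate 1 or 3. For mir-92a-1 the values were 19122, 21013 and 17321 against 39726, 37326 and 25417 (log2 0.81, SE 0.35, limma adjusted p = 0.067, or 0.042 without ALA replicate 3). The groups of mir-92a-1 did not overlap on the authors' scale, with ALA higher. Its log2 value was 0.03 with equal totals, -0.33 centred on the median hairpin and -1.05 (limma adjusted p = 0.037) on the DGCR8-independent hairpins. The ratio of mir-92a-1 to mir-19a was 13.5, 8.10 and 7.91 without ALA and 63.0, 42.8 and 37.97 with it. The related mir-17 and mir-20a stood at 0.50 each and mir-19b-1 at -0.79, none of them called. Over the whole family list 1 of 13 tested members fell and none rose, beside 2.98% and 44.6% of all tested hairpins. The list median of 0.44 turned to -0.34 with equal totals, -0.69 centred on the median hairpin and -1.42 on the DGCR8-independent hairpins.

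The mir-183 cluster, which also holds mir-96 and mir-182 and is a sensory-organ cluster often high in epithelial tumours, rose as a whole. All 3 members rose, beside 44.6% of all tested hairpins. Their median of 2.15 stayed above 0 under the other scalings (1.37, 1.02 and 0.29), while none of the 3 was called when libraries were centred on the DGCR8-independent hairpins. The hairpin mir-183 (chromosome 7, 129774905 to 129775014, minus strand) went from 896, 1074 and 1050.3 scaled reads to 5120.1, 4873 and 3582. For mir-182, values were 8319, 8052 and 6030.2 against 22363, 22476 and 27482. For mir-96, they were 33.5, 29.6 and 36.6 against 312, 347 and 57.6, with ALA replicate 3 close to the P351A libraries. The log2 fold changes were 2.15, 1.70 and 2.44, with limma adjusted p of 4.5e-06, 4.5e-06 and 0.0009.

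The miR-23/27/24 hairpins, cut from 2 transcripts on chromosomes 9 and 19, rose in all 6 tested members, beside 44.6% of all tested hairpins. Their median of 1.46 was 0.32 centred on the median hairpin and turned to -0.41 on the DGCR8-independent hairpins. For mir-23a, in an exon of AC020916.1 (chromosome 19, 13836587 to 13836659, minus strand), values were 76.5, 102.9 and 109.8 without ALA and 770.2, 825 and 343 with it. The log2 fold change was 2.65 (SE 0.39, limma adjusted p = 4.1e-05). Its neighbour mir-27a rose by 1.47 (SE 0.28, limma adjusted p = 0.00038) and mir-24-1 by 1.15 (SE 0.36, limma adjusted p = 0.016). The ratio of mir-23a to mir-27a was 0.0378, 0.0432 and 0.0485 without ALA and 0.196, 0.104 and 0.0465 with it, so these groups overlapped. For mir-24-1 the adjusted p was 0.065 without P351A replicate 1 and 0.078 without ALA replicate 3. The seed-sharing mir-23b, from C9orf3 on chromosome 9, rose by 2.40 (SE 0.35, limma adjusted p = 3.7e-05), so both members with the miR-23 seed stood above the 4 others of the list.

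The let-7 hairpins, which restrain RAS, MYC and other growth genes, rose in 8 of 12 tested members, with none falling. Of all tested hairpins 44.6% rose. The median of 0.75 lay near that of all tested hairpins, and it turned to -0.03 with equal totals, -0.39 centred on the median hairpin and -1.11 on the DGCR8-independent hairpins. The hairpin let-7i (chromosome 12, 62603686 to 62603769, plus strand) had 9866, 12674 and 11517 scaled reads without ALA and 24938, 42239.5 and 55447 with it (log2 1.78, SE 0.28, limma adjusted p = 6.8e-05). The groups did not overlap. For let-7c, in MIR99AHG, the values of 5205, 6555 and 6871 overlapped those of 5258, 5319 and 6614 (log2 -0.11, SE 0.30, limma adjusted p = 0.80). The ratio of let-7i to let-7c was 1.90, 1.93 and 1.68 without ALA, 4.74, 7.94 and 8.38 with it and 15.2 to 16.8 in WT. Reads of let-7 members that differ by a base or so can be assigned to each other, so their separate values are uncertain.

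The remaining families fell on both sides of the median of all hairpins, as the plot of families shows. Their counts of risen members stand beside the 44.6% of all tested hairpins that rose. The miR-26 family, which restrains EZH2, had 2 of 3 tested members called: both copies of mir-26a, with mir-26a-1 at 2459.7, 2545 and 2784 scaled reads without ALA and 9918, 11604 and 8411 with it (log2 1.93, SE 0.27, limma adjusted p = 2.2e-05). For mir-26b the log2 fold change was 0.39 (SE 0.44, limma adjusted p = 0.48), and the ratio of mir-26a-1 to mir-26b went from 1.95, 1.45 and 1.62 to 4.92, 5.23 and 4.42. The median of this list, 1.93, is the value of the mir-26a copies, and it was 0.79 centred on the median hairpin and 0.07 on the DGCR8-independent hairpins. That of mir-26b turned to -0.39 with equal totals, and to -0.75 and -1.47 on those scalings. In the miR-15/16 family, which restrains cyclins and BCL2, 2 of 5 members rose. They were mir-424, on the X chromosome, with 19.7, 20.7 and 20.01 scaled reads against 141.6, 277 and 128 (log2 3.03, SE 0.37, limma adjusted p = 7.9e-06), and mir-16-2, with a log2 fold change of 0.59 (SE 0.24, limma adjusted p = 0.049). The call of mir-16-2 was lost without any of the P351A libraries or without ALA replicate 1 or 2 (adjusted p from 0.052 to 0.25). The median of that list, 0.59, turned to -0.19 with equal totals, -0.55 centred on the median hairpin and -1.27 on the DGCR8-independent hairpins.

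The miR-34 family, a set of p53 targets, rose in both tested members, with a median of 2.00 that was 0.86 centred on the median hairpin and 0.13 on the DGCR8-independent hairpins, while neither member was called under the other 3 scalings. For mir-34a the values were 299.7, 361 and 401 without ALA and 624, 1487 and 1041 with it (log2 1.49, SE 0.46, limma adjusted p = 0.014, and 0.054 without P351A replicate 1 and 0.070 without ALA replicate 2). The miR-181 family, known from lymphocyte development, rose in 5 of 6 tested members with a median of 1.40, which turned to -0.46 centred on the DGCR8-independent hairpins. The miR-29 family, which restrains collagens, rose in 2 of 4, near the 44.6% of all tested hairpins that rose. Its median of 1.56 turned to -0.31 centred on the DGCR8-independent hairpins. None of the 5 miR-200 hairpins, guardians of the epithelial state, was called. Their median of 0.40 turned to -0.37 with equal totals, -0.74 centred on the median hairpin and -1.46 on the DGCR8-independent hairpins.

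Lists with medians below 0 on the authors' scale were few. Over all tested hairpins 44.6% rose and 2.98% fell. None of the 6 tested miR-99/100 and miR-125 hairpins, among them mir-100 at -0.38 (limma adjusted p = 0.42), was called, and their median was -0.37 on the authors' scale and lower on the other 3. In the cluster of the CLCN5 introns on the X chromosome, 1 of 5 tested members fell and none rose, with a median of -0.64 that was lower on the other 3 scalings. That member, mir-501 (50009722 to 50009805, plus strand), went from 104, 113 and 67.8 scaled reads to 51.5, 51.7 and 21.5 (log2 -1.24, SE 0.41, limma adjusted p = 0.02, and 0.067 to 0.11 without P351A replicate 1 or 2 or ALA replicate 3).

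**Figure D1:**
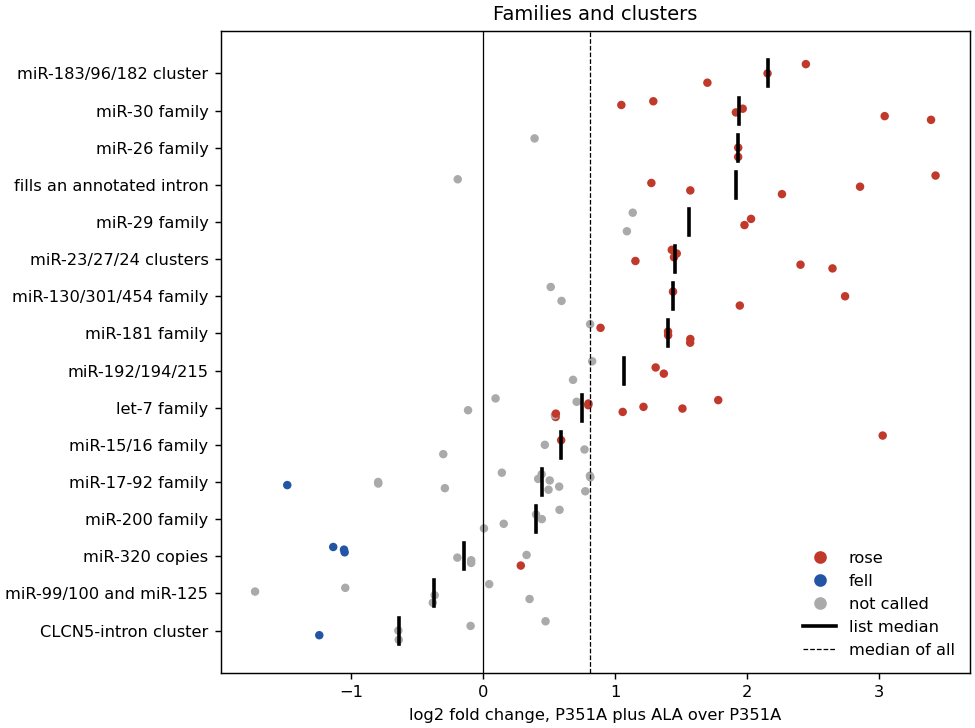
Each point is a tested hairpin of the family or cluster on the y axis, placed at its log2 fold change, P351A plus ALA over P351A, on the authors' scale, and coloured by call (red rose, blue fell, grey not called); black bars are list medians and the dashed line is the median of all tested hairpins. Of the lists drawn, which leave out miR-34, the mir-183 cluster, miR-30 and miR-26 have the medians farthest to the right (1.93 to 2.15), and these stay above 0 under all 4 scalings, whereas those of the let-7, miR-15/16, miR-17-92 and miR-200 lists turn below 0 under the other 3. The miR-26 median is the value of the mir-26a copies, and mir-26b turned below 0 under the other 3.

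Hairpins that do not need Microprocessor were not level. All 5 tested members of the list of hairpins known to be made without DGCR8 rose on the authors' scale, beside 44.6% of all tested hairpins. Among them mir-320a was called as a fall under each of the other scalings. The list median of 1.78 was 0.64 centred on the median hairpin and -0.09 on the scaling that these hairpins themselves set. The mirtron mir-877, an intron of ABCF1 from end to end (chromosome 6, 30584332 to 30584417, plus strand), had 609, 507 and 342 scaled reads without ALA and 6397, 7013 and 2942 with it. Every ALA library exceeded every P351A library by a wide margin. Between the groups the log2 fold change was 3.43 (SE 0.41, limma adjusted p = 5.3e-06), the largest of this list. In mock libraries, which have no DGCR8 rescue, mir-877 stood at 2683, 4517 and 3484, above every P351A library without ALA and overlapping those with ALA. The log2 difference from mock, fitted on the authors' scale only, was -2.88 for P351A (limma adjusted p = 3e-05) and 0.55 for P351A plus ALA (limma adjusted p = 0.25). These contrasts share libraries.

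A list of hairpins that fill an annotated intron, added after the data were seen, held 6 tested hairpins. Among them mir-877, mir-1224, mir-1226, mir-3620 and mir-6807 rose, beside 44.6% of all tested hairpins, and mir-6892 was not called (log2 -0.19). The median was 1.92, and 0.78 and 0.05 with the libraries centred on the median and on the DGCR8-independent hairpins. For mir-3620, from ARF1 (chromosome 1, 228097263 to 228097341, plus strand), the values were 3.21, 2.43 and 4.39 without ALA, 39.7, 22.97 and 29.2 with it and 19, 45.1 and 27.6 in mock. The ALA and mock libraries overlapped, and the P351A libraries lay below both. For mir-1224, from VWA5B2, the values were 11, 9.32 and 7.32 without ALA, 67.6, 58.6 and 26.9 with it and 27, 25.8 and 42.6 in mock. The log2 fold changes with ALA were 2.85 for mir-3620, 2.26 for mir-1224 and 1.57 for mir-1226, with limma adjusted p of 9.1e-06, 0.0001 and 0.00052. The value of mir-1226 turned to -0.29 centred on the DGCR8-independent hairpins, of which it is a member.

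The hairpins mir-4521, on chromosome 17, and mir-1254-1, in an intron of CCAR1 on chromosome 10, followed the same order of groups. For mir-4521 the values were 99.5, 68.1 and 31.7 without ALA, 617, 475 and 269.7 with it and 568, 1017 and 722 in mock. For mir-1254-1 they were 53.2, 42.5 and 29.8 without ALA, 324, 287 and 236 with it and 212 ± 57.1 (mean and SD, n = 3) in mock. In both the P351A libraries were below all others, and the ALA and mock libraries overlapped. The log2 fold changes with ALA were 2.82 (SE 0.48, limma adjusted p = 0.00014) and 2.75 (SE 0.35, limma adjusted p = 9.1e-06).

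Other hairpins outside the usual route behaved unevenly. The hairpin mir-484, made at the transcription start of NDE1 (chromosome 16, 15643294 to 15643372, plus strand), had 562, 504 and 534 scaled reads without ALA and 3836, 2425 and 654 with it. ALA replicate 3 was barely above the P351A libraries. The log2 fold change was 1.78 (SE 0.54, limma adjusted p = 0.014), with an adjusted p of 0.0849 without ALA replicate 1 and 0.054 without ALA replicate 2. No other scaling called it, with a limma adjusted p of 0.14 with equal totals and 0.23 centred on the median hairpin. The value was -0.09 (0.88) centred on the DGCR8-independent hairpins, of which it is a member. The hairpins mir-3648-1 and mir-3687-1 lie inside a 45S ribosomal RNA gene on chromosome 21 (8208473 to 8208652 and 8208844 to 8208904, plus strand), a pair added after the data were seen. They went from 16.04, 13.0 and 16.1 to 194.2, 169 and 49.9 and from 4.58, 5.27 and 7.32 to 39.7, 45.9 and 20.7. Their log2 fold changes were 2.90 (SE 0.45, limma adjusted p = 5.4e-05) and 2.39 (SE 0.36, limma adjusted p = 4.3e-05), and fragments of ribosomal RNA would be counted in the same entries.

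The miR-320 hairpins, of which mir-320a is known to be made without DGCR8, differed among themselves. For mir-320a the values were 77467, 75881 and 72183 without ALA and 91164, 95031 and 88662 with it (log2 0.29, SE 0.09, limma adjusted p = 0.019, and 0.066 and 0.071 without P351A replicate 3 or ALA replicate 2). Under the other 3 scalings mir-320a was called as a fall. Its log2 value was -0.50 with equal totals (limma adjusted p = 0.015) and -0.85 centred on the median hairpin (0.0013). On the DGCR8-independent hairpins, of which it is a member, it was -1.58 (0.00024). For mir-320b-2 the values were 69678, 69307 and 67609 against 66754, 66333 and 61125 (log2 -0.09, SE 0.10, limma adjusted p = 0.48). The low copies mir-320d-1, mir-320d-2 and mir-320e fell, with log2 fold changes near -1.05 and -1.14 and limma adjusted p of 0.035, 0.035 and 0.03. The calls of mir-320d-1 and mir-320e were lost (adjusted p from 0.057 to 0.12) without P351A replicate 1 or 2 or ALA replicate 1 or 3, and that of mir-320d-1 also without P351A replicate 3. Of 8 tested copies 1 rose and 3 fell, beside 44.6% and 2.98% of all tested hairpins. Their median of -0.14 stayed below 0 under the other 3 scalings. Copies share most of their bases, so their separate values are uncertain.

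A hairpin of the DGCR8 transcript itself differed between the groups. The hairpin mir-1306 lies in an exon of DGCR8 (chromosome 22, 20086058 to 20086142, plus strand). It had 17.0, 12.6 and 13.7 scaled reads without ALA and 121, 161 and 213 with it, from 96 and 530 reads. All ALA libraries were above all P351A libraries, and also above the WT libraries at 42.7, 41.4 and 34.2 and the mock libraries at 0, 3.22 and 0. The log2 fold change with ALA was 3.40 (SE 0.50, limma adjusted p = 4.1e-05), and mir-1306 was among those that rose under all 4 scalings. The other hairpin of the transcript, mir-3618 (20085746 to 20085833), had a mean of 0.907 over the 15 libraries and was not tested. The amount of DGCR8 was not measured, and its part in the other results was not tested.

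The 10 hairpins that fell on the authors' scale also fell under the other 3 scalings. Those scalings all lowered the ALA values against P351A, so that direction was fixed in advance. The hairpin mir-629, from an intron of TLE3 (chromosome 15, 70079372 to 70079468, minus strand), had 63.2, 90.7 and 98.6 scaled reads without ALA and 13.9, 21.8 and 23.1 with it. The groups did not overlap, and ALA replicate 1 and P351A replicate 1 were the lowest of their groups. It thus had a log2 fold change of -2.05 (SE 0.49, limma adjusted p = 0.0022), and this was the only fall called in all 6 fits that left out a library. The hairpin mir-561, from GULP1 on chromosome 2, went from 169, 219 and 198 to 30.0, 108 and 118 (log2 -1.40, SE 0.45, limma adjusted p = 0.017). For mir-3615, on chromosome 17, the values were 2067, 2028 and 1467 against 1098, 702 and 446 (log2 -1.39, SE 0.47, limma adjusted p = 0.023). In both, every ALA library lay below every P351A library. The low hairpins mir-95, with 13.3, 17.0 and 15.6 scaled reads against 3.22, 10.3 and 5.38 (log2 -1.27), and mir-1255a (log2 -0.97) also fell. Leaving out P351A replicates 1, 2 and 3 in turn left 4, 2 and 5 falls, and leaving out ALA replicates 1, 2 and 3 left 5, 9 and 3. Of these, mir-561 missed the threshold without P351A replicate 2 or ALA replicate 1 (adjusted p up to 0.12), and mir-3615 without P351A replicate 1 or 2 or ALA replicate 2 or 3 (up to 0.098). The fall of mir-95 missed the threshold without any single library other than ALA replicate 2 (up to 0.15), and mir-1255a missed the threshold without P351A replicate 3 (0.056).

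The most abundant hairpin, mir-21, an oncogenic microRNA in an exon of VMP1 (chromosome 17, 59841266 to 59841337, plus strand), had 68606, 92311 and 89927 scaled reads without ALA and 140549, 222676 and 207335 with it. The groups did not overlap, with replicate 1 the lowest in both. That is a log2 fold change of 1.17 (SE 0.28, limma adjusted p = 0.0025), but it was 0.03 centred on the median hairpin and -0.69 on the DGCR8-independent hairpins. The values of mir-31, from MIR31HG on chromosome 9, were 44225, 52750.5 and 53218 without ALA and 76359, 78458 and 65645 with it (log2 0.55, SE 0.23, limma adjusted p = 0.056, or 0.010 when only these 6 libraries were fitted). Further abundant hairpins rose on the authors' scale: let-7a-3 by 0.55, let-7f-2 by 0.80 and mir-103a-2 by 0.82. All of these had values below 0 centred on the median hairpin, and each of their calls was lost without single libraries (adjusted p from 0.056 to 0.19). These were any library but ALA replicate 1 for let-7a-3, P351A replicate 1 or ALA replicate 3 for let-7f-2, and P351A replicate 1 or ALA replicate 2 or 3 for mir-103a-2.

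The ALA libraries varied more than the P351A libraries. The median coefficient of variation over tested hairpins was 13.5% in P351A and 25.6% in P351A plus ALA. ALA replicate 3 was the lowest ALA library for 85 of the 150 risen hairpins and the highest for 44. It was more than 3-fold below both other ALA libraries for 13 of them, among them mir-149, mir-30b, mir-342, mir-484, mir-96, mir-326 and mir-505. Without ALA replicate 3 the log2 fold change went from 3.04 to 3.71 for mir-30b, from 3.90 to 4.72 for mir-342, from 1.78 to 2.51 for mir-484, from 2.44 to 3.28 for mir-96 and from 2.90 to 3.51 for mir-3648-1. Without ALA replicate 1 that of mir-561 went from -1.40 to -0.78. Whichever 1 of the 6 libraries was left out, at least 113 hairpins rose. The number called as risen in all 6 such fits was 100.

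Levels with ALA can be set beside the WT and mock rescues, with the reservation on mir-373 and on WT replicate 1 given above. The contrasts with WT and mock were fitted on the authors' scale only, and the other scalings were not applied to them. Mean summed values on that scale were 826388 in P351A, 1421101 in P351A plus ALA, 1431164 in WT and 511241 in mock. How far the counts below rest on this scale was not tested. P351A had 11 hairpins above WT (3.27%) and 172 below it (51.2%), and P351A plus ALA had 46 above (13.7%) and 68 below (20.2%). Against mock, P351A had 76 above (22.6%) and 87 below (25.9%), and P351A plus ALA 166 above (49.4%) and 30 below (8.93%). These contrasts share libraries. For mir-30a the log2 difference from WT was -3.998 in P351A (limma adjusted p = 5e-08) and -0.61 in P351A plus ALA (limma adjusted p = 0.16), and for mir-22 it was -3.16 (2.3e-08) and -0.36 (0.25). The ALA libraries of mir-30a (1363 to 3569) overlapped those of WT (3036 to 4784), and so did those of mir-22.

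On the authors' scale, other hairpins stayed below WT or went above it. The log2 difference of P351A plus ALA from WT was -1.002 for mir-10a (limma adjusted p = 0.0046), -1.23 for mir-26a-1 (0.0032), -1.78 for mir-27a (0.00029) and -2.16 for mir-16-2 (4.1e-06). All 3 ALA libraries of mir-10a lay below the WT libraries, which held 92125, 46442 and 59417. It was above 0 for mir-222 at 0.51 (0.036), mir-224 at 1.09 (0.049), mir-877 at 1.93 (0.0026), mir-149 at 1.93 (0.046) and mir-1306 at 2.01 (0.0074), all limma adjusted p. P351A without ALA was below WT for each of these hairpins in the same fit.

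The series title names the apical loop, so tested hairpins were described by the part between their mature arms, which could be placed for 191 of 336 from the RefSeq sequences. Hairpins with an apical part longer than the median of 16 bases rose in 52 of 91 cases, with a median log2 fold change of 1.06, and the others in 37 of 100, with a median of 0.74. The motif UGU, searched on the transcribed strand as these letters, was found in the apical part of 40.8% of these 191 hairpins and of 32.2% of the 603 hairpins of the whole table for which that part could be placed. Hairpins with it rose in 43 of 78 cases (median 1.06) and those without it in 46 of 113 (median 0.81). Of all 191 placed hairpins, 89 rose (46.6%). The splits in this paragraph were counted on the authors' scale only and not repeated under the other scalings. Longer parts hold any motif more often, and the GUG motif, which overlaps UGU, gave 44 of 78 and 45 of 113. The share of G and C over the hairpin made no such split, at 59 of 136 above its median and 59 of 137 at or below it. Across 191 hairpins Spearman's rho between apical length and log2 fold change was 0.21, a description over hairpins that share libraries and, in part, sequences.

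Hairpins with large changes are printed here 5′ to 3′ from RefSeq on GRCh38.p14, with the part between the mature arms in capitals, to show how that part differs among them.
mir-30a: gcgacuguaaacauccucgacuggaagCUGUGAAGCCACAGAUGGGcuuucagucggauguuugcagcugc
mir-224: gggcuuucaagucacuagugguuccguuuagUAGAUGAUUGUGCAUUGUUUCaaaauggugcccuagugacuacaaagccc
mir-149: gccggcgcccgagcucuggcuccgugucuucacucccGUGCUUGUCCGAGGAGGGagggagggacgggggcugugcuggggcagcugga
mir-222: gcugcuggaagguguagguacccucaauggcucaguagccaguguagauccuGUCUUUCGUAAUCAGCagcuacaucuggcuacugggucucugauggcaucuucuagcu
mir-877: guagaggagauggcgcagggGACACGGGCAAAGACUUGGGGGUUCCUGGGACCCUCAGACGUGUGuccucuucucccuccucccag
mir-19a: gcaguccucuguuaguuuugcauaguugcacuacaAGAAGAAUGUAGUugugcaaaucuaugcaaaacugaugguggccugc

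The apical parts of the rising mir-30a, mir-224 and mir-149 are 19, 21 and 18 bases long and hold UGU, while that of mir-222, which rose by 2.39, is 16 bases long and does not. The falling mir-19a has 13 bases with UGU, and the falling mir-629 has 18 bases without it. The mirtron mir-877, which needs no cut by Microprocessor, has 45 bases with UGU.

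Hairpins typical of other cell types were measured as a check. Of 17 in the table, 6 were tested, of which mir-126, an endothelial microRNA within EGFL7, rose and none fell, with a median of -0.88 that was lower under the other 3 scalings. The sum of the 17 was 2352 to 3515 scaled reads in the P351A libraries and 1501 to 2564 in the ALA libraries, with mir-223 of myeloid cells at 0 in all 6. For the neural mir-9-1 the values were 664, 1023 and 891 without ALA and 300.4, 593 and 419.6 with it (log2 -1.004, SE 0.47, limma adjusted p = 0.083). For mir-126 they were 231, 277 and 259 against 504, 679.9 and 647 (log2 1.24, SE 0.26, limma adjusted p = 0.00097), though its value turned to -0.62 centred on the DGCR8-independent hairpins. The libraries are bulk RNA of edited HCT116 cells, and the labels name no other cell type in them. Whether fewer of these cells held a hairpin or each held less of it cannot be told apart. The summed epithelial list was 2576 to 2910 scaled reads without ALA and 2745 to 4360 with it, with 2 of 10 members called as risen and a median of 0.51 that turned below 0 under the other 3 scalings. The counts of both lists stand beside 44.6% risen and 2.98% fallen over all tested hairpins.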

How the data were processed

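Small RNA of 17 to 30 nt was cut from a 15% gel and sequenced, per the labels' protocols. The submitters' processing notes name cutadapt 1.14, Bowtie2 and hg38 (GRCh38). The rule that assigned reads to hairpins and the scaling of libraries are not stated in these notes or labels. In the table deposited by the authors, mock library a holds whole-number read counts and the other columns hold signal, namely counts times a factor per library. All values (100%) were whole multiples of their library's smallest step (tolerance 0.001), so the reads were recovered and their sum is the depth. Columns were matched to samples by name, and the mock columns to their group only.

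Hairpins with a mean of 10 or more were tested with limma 3.58.1 in R 4.3.3 on log2(value + 1), with eBayes and a variance trend, 2-sided, over all 15 rescue libraries in 1 fit, adjusted over 336 hairpins. Low hairpins are understated by the pseudocount of 1. The script was tested on simulated data. The members, lists and alternatives were chosen with earlier results of these data known. Hairpins were named by rule: the 12 largest rises and falls among those at or above the median level with groups apart, the 5 largest of each among all, the 10 most abundant, and list members. Positions came from GENCODE 29, and an intron counted as filled when both ends lay within 5 nt. Copies with a shared mature sequence, such as mir-103a-2 and mir-107, hold nearly the same reads. Alternatives included 3 scalings, edgeR 4.0.16, DESeq2 1.42.0 and leaving out each library. Counting intervals cover counting error only.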

Additional observations from a re-analysis of the deposited data

How the results depend on the processing

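Scaling decided how many hairpins were called in each direction, as the report gives beside the results. Centred on the median hairpin, 45 hairpins rose and 105 fell (median log2 fold change -0.33). The counts were 17 and 166 centred on the DGCR8-independent hairpins (-1.05), and 74 and 61 with equal totals (0.057). With edgeR and TMM factors 55 rose and 121 fell (median -0.30), and with DESeq2 81 rose and 80 fell (0.0030). Chosen after seeing the data, edgeR on the authors' scale gave 172 and 12 (0.88). A pseudocount of 10 lowered the median to 0.62, and no filter to 0.28, with 5 falls and 382 hairpins whose libraries did not overlap. A minimum mean of 100 left 67 rises, 3 falls, a median of 0.60 and 113 such hairpins. Fitting only the 6 libraries gave 24 falls beside 176 rises. The replicate number as a block gave 25 falls and 184 rises. Deviations of same-number libraries correlated by -0.03 to 0.26 in 3 pairs, so the numbers were not taken to pair the samples. Leaving out each library gave at least 113 rises, 2 to 9 falls, medians from 0.74 to 0.92, and 243 to 266 hairpins without overlap.

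Among the 64 hairpins with values in the text, those whose log2 fold change turned sign were, centred on the median hairpin, -0.85 for mir-320a, -0.58 for mir-31, -1.11 for mir-221, -0.59 for let-7a-3, -0.33 for mir-92a-1, -0.34 for let-7f-2, -0.32 for mir-103a-2, -0.55 for mir-16-2, -0.091 for mir-30d, -0.64 for mir-17, -0.63 for mir-20a, -0.75 for mir-26b and -0.63 for mir-454. Centred on the DGCR8-independent hairpins they were -0.69 for mir-21, -1.58 for mir-320a, -1.31 for mir-31, -1.83 for mir-221, -1.31 for let-7a-3, -1.05 for mir-92a-1, -0.083 for let-7i, -1.07 for let-7f-2, -1.04 for mir-103a-2, -0.089 for mir-484, -0.29 for mir-1226, -1.27 for mir-16-2, -0.17 for mir-182, -0.82 for mir-30d, -0.71 for mir-24-1, -0.40 for mir-27a, -0.62 for mir-126, -1.37 for mir-17, -1.36 for mir-20a, -1.47 for mir-26b, -1.35 for mir-454 and -0.37 for mir-34a. With edgeR and TMM they were -0.0033 for mir-21, -0.90 for mir-320a, -0.63 for mir-31, -1.15 for mir-221, -0.60 for let-7a-3, -0.36 for mir-92a-1, -0.31 for let-7f-2, -0.35 for mir-103a-2, -0.59 for mir-16-2, -0.13 for mir-30d, -0.65 for mir-17, -0.64 for mir-20a, -0.80 for mir-26b and -0.68 for mir-454. With equal totals they were -0.50 for mir-320a, -0.23 for mir-31, -0.75 for mir-221, -0.23 for let-7a-3, -0.19 for mir-16-2, -0.28 for mir-17, -0.28 for mir-20a, -0.39 for mir-26b and -0.26 for mir-454. With DESeq2 they were -0.58 for mir-320a, -0.32 for mir-31, -0.84 for mir-221, -0.29 for let-7a-3, -0.042 for mir-92a-1, -0.037 for mir-103a-2, -0.27 for mir-16-2, -0.32 for mir-17, -0.32 for mir-20a, -0.49 for mir-26b and -0.36 for mir-454. Leaving out each library moved mir-221 between -0.12 and 0.12 and mir-6892 between -0.53 and 0.13. No sign turned with the other pseudocount, the filters, the 6-library fits, no variance trend, averaged copies or edgeR on the authors' scale. The cause of each of these differences was not tested. Depth limits the low hairpins: those with fewer than 100 reads in a group, such as mir-95 and mir-4517, rest on few counts.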

Other observations

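The mir-103a and mir-107 hairpins restrain insulin signalling and DICER1 and hold nearly the same reads in this table. All 3 of them, both copies of mir-103a and mir-107, rose. Their median log2 fold change of 0.82 was 0.039 with equal totals. It turned to -0.32 and -1.04 centred on the median and the DGCR8-independent hairpins. The p53-linked and gut-epithelial hairpins mir-192, mir-194-1, mir-194-2 and mir-215 had 2 of 4 risen, near the 44.6% of all tested hairpins. Their median of 1.07 turned to -0.071 and -0.80 on those scalings. Both copies of mir-101, a brake on EZH2, were not called, with a median of 0.72 that turned below 0 on the other 3 scalings. Of the stem-cell cluster of mir-372 and mir-373, mir-372 held 2 reads in the ALA libraries together and none in the P351A libraries, and mir-373 none in either.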
